A study of Mus musculus with 24 samples.

Results

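The genes described here are 9 members of the transforming growth factor beta (TGF-beta) system of the mouse, measured by bulk RNA-seq of the hippocampus. They are the ligands Tgfb1, Tgfb2 and Tgfb3, the latent ligand binding protein Ltbp1, the receptors Tgfbr1, Tgfbr2 and Tgfbr3, the feedback inhibitor Smad7 and Tgfbi, a gene named for its induction by TGF-beta. They are 9 of the 36605 genes in the count table, and all 9 passed the filter on low counts, as did 19742 genes in all. The members were taken by name. Tgfbi was chosen by its higher level in mice that carry Nestin-Cre, so that difference is given as a description without a test, and the question is whether the ligands, receptors or Smad7 moved with it.

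The 24 adult mice were 3 females and 3 males of each of 4 genotypes. Egr1wtNesCre- mice had a normal Egr1 gene and no Cre, Egr1wtNesCre+ mice carried the Nestin-Cre transgene alone, and Egr1fNesCre- mice carried the floxed Egr1_tm1a allele alone. Egr1fNesCre+ mice carried both and are the conditional knockout, Egr1cKO. Nestin, whose promoter drives the Cre, is made in neural precursors, so recombination is not limited to the hippocampus or to neurons. Mice with the normal and the floxed allele come from different series of mouse numbers, and the allele and that series cannot be told apart. Egr1, the immediate early transcription factor that was deleted, served as the check of the labels.

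TGF-beta ligands are secreted in a latent form, held in the matrix by latent TGF-beta binding proteins such as LTBP1. Once released, a ligand binds TGFBR2, which activates TGFBR1, while TGFBR3 (betaglycan) presents ligand to this pair. The active receptor phosphorylates SMAD2 and SMAD3, which enter the nucleus with SMAD4, and SMAD7 is induced by the pathway and blocks the receptor. TGFBI is a secreted matrix protein that binds collagens and integrins. In the brain the ligands and receptors are made by neurons, glia and vascular cells, and bulk RNA holds them all: fewer cells of a type and less RNA per cell cannot be told apart here.

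Library totals ran from 18025168 to 34955004 counts, with a median of 22743950.5. Egr1 was at 4.86 to 10.2 CPM (counts per 1000000 counts of the library, scaled by TMM) in the 6 Egr1fNesCre+ mice and at 47.7 CPM or more in each of the other 18, so Egr1 matched the labels of the conditional knockout; it does not tell the other 3 genotypes apart. The neuronal genes Camk2a and Slc17a7 averaged 4654 and 1505 CPM. The labels also give an endocrine cell type, but 5 of the 6 measured pituitary hormone genes averaged under 1 CPM. Male Egr1wtNesCre+ replicate 2 stood apart: leaving it out raised the genes called for the interaction of allele and Cre from 1 to 1455. Male Egr1fNesCre- replicate 1 did the same for Cre in Egr1f mice, from 4 to 304. Choroid plexus tissue differed between dissections, since 5 mice had over 100 CPM of Ttr, the transthyretin transcript of that tissue.

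The start regions of Tgfbi, Tgfb1 and Tgfbr1 are printed because Egr1 encodes a DNA-binding factor and these are the member that rose with Cre and the members whose windows hold an EGR1 motif. Each window runs from 250 bases before to 50 bases after a RefSeq start site (GRCm38.p6), 5′ to 3′ on the strand of the gene, which is the plus strand for these 3 genes. Tgfbi lies at chr13:56609336-56609635, Tgfb1 at chr7:25686752-25687051 and Tgfbr1 at chr4:47352972-47353271. Capitals mark matches to the EGR1 motifs GCGTGGGCG and GCGGGGGCG on either strand.
Tgfbi: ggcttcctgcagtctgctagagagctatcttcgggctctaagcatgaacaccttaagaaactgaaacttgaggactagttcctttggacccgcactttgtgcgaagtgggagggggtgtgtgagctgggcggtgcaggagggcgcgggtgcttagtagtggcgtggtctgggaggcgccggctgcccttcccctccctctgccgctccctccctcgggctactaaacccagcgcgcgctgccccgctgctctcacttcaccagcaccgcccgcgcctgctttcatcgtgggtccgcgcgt
Tgfb1: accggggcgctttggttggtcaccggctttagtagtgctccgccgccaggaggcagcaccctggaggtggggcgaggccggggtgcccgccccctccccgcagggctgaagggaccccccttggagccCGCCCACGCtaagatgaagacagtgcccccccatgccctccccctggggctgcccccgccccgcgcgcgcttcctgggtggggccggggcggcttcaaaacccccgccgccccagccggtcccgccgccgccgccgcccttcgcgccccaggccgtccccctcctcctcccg
Tgfbr1: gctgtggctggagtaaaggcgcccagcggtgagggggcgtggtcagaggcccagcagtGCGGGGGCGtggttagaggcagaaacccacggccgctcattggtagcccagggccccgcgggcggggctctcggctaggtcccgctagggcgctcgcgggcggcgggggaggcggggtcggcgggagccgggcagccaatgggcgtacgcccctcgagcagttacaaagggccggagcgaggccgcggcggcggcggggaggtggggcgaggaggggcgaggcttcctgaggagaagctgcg

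The Tgfbi window held neither EGR1 motif. Tgfb1 held GCGTGGGCG on the minus strand 122 bases before its start site, read as CGCCCACGC on the plus strand, and Tgfbr1 held GCGGGGGCG 192 bases before its start. Across 32851 RefSeq windows of the same length, 0.612% held the first motif and 2.91% the second. The SMAD motif CAGAC occurred 2 times in the Tgfbi window, 239 and 85 bases before the start, and 49.6% of all windows held it. RefSeq windows were available for 6 of the 9 members. A match to these letters is no evidence of binding.

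Per kilobase of exon, Tgfb2 was the most abundant member, at 9.62 ± 1.39 CPM per kb (SD, n = 24 mice). Smad7 (5.93 ± 0.63) and Tgfbr1 (5.26 ± 0.70) followed, then Tgfbr3 (3.11 ± 0.47), Tgfb3 (2.11 ± 0.39) and Tgfbr2 (1.81 ± 0.31), all in CPM per kb. The lowest 3 were Tgfb1 (1.11 ± 0.24), Tgfbi (0.834 ± 0.308) and Ltbp1 (0.723 ± 0.117 CPM per kb). Every neighbouring pair in this order overlapped in range over mice. Within single mice the steps were of unequal firmness: Tgfb2 exceeded Smad7 in 24 of 24 mice, Tgfbr1 exceeded Tgfbr3 in 24, and Tgfbr2 exceeded Tgfb1 in 24, while Smad7 exceeded Tgfbr1 in 18, Tgfb3 exceeded Tgfbr2 in 17 and Tgfbi exceeded Ltbp1 in only 15. The ligand of highest level was thus Tgfb2, and the receptor genes ranked Tgfbr1, Tgfbr3, Tgfbr2 on this scale.

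Tgfbi (ENSMUSG00000035493, chromosome 13, 56609523 to 56639562, plus strand, GRCm38) had 34 to 121 raw counts per library and a coefficient of variation of 36.9% over the 24 mice, which includes the Cre difference. Within genotypes it was 16.5% in Egr1fNesCre-, 20.6% in Egr1wtNesCre+, 25.3% in Egr1cKO and 34.5% in Egr1wtNesCre- mice. In Egr1wtNesCre- mice it was at 2.21, 1.71 and 3.90 CPM in the females, while males were at 2.76, 1.78 and 2.01 CPM. In Egr1fNesCre- mice it was at 2.07, 2.77 and 1.86 CPM in the females, while males were at 1.86, 2.38 and 2.00 CPM. The highest 3 Cre- mice, at 3.90, 2.77 and 2.76 CPM, lay within the range of the Cre+ mice.

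In Egr1wtNesCre+ mice the Tgfbi levels were 4.80, 2.64 and 4.45 CPM in the females, with 4.59, 3.87 and 3.48 CPM in the males. In Egr1cKO mice they were 3.81, 3.37 and 4.37 CPM in the females, with 5.93, 3.01 and 3.89 CPM in the males. The mean was 4.02 ± 0.89 CPM in the 12 Cre+ mice and 2.28 ± 0.62 CPM in the 12 Cre- mice. The groups overlapped: 5 Cre+ mice were above every Cre- mouse, 9 Cre- mice were below every Cre+ mouse, and the Cre+ mouse was the higher in 93.8% of the 144 pairs.

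**Figure D1:**
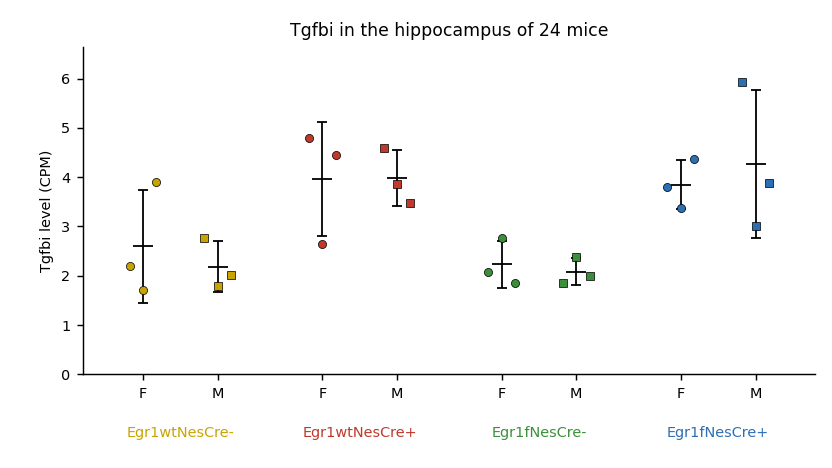
Tgfbi level in CPM (y axis) by genotype and sex (x axis: F, females; M, males); each point is 1 mouse, and the bars give the mean and SD of 3 mice. Cre+ mice averaged 4.02 CPM and Cre- mice 2.28 CPM, with 3 Cre- mice, at 3.90, 2.77 and 2.76 CPM, inside the Cre+ range.

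The fitted Cre difference of Tgfbi was 0.82 on the log2 scale (SE 0.15, a fold of 1.77), and it was 0.74 (SE 0.23) in Egr1wt mice and 0.91 (SE 0.19) in Egr1f mice. Its level was thus higher with Cre beside the normal and beside the floxed allele. The difference between the 2 alleles, the interaction, was 0.18 (95% interval -0.39 to 0.76, edgeR quasi-likelihood adjusted p = 0.791), and the data leave room for a sizeable difference either way. Within sexes it was 0.69 (SE 0.22) in females and 0.95 (SE 0.22) in males. Females minus males gave -0.26 (95% interval -0.86 to 0.34, edgeR adjusted p = 1.00). In 24 fits that each left out 1 mouse, the Cre difference of Tgfbi stayed between 0.75 and 0.92, and without the 5 mice rich in Ttr it was 0.84.

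The ligands, Ltbp1, the receptors and Smad7 gave no call with Cre. By edgeR's quasi-likelihood test with Benjamini-Hochberg adjustment over all 19742 genes, 0 of these 8 members passed an adjusted p of 0.05 for the Nestin-Cre term, 0 had an unadjusted p under 0.05, and DESeq2 called 0. Among all genes 9 passed, or 0.0456%. The median log2 difference of the 8 members was 0.01, against -0.001 over all genes, and 4 of the 8 were above 0.

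Tgfb1 (ENSMUSG00000002603, chromosome 7), the most studied ligand of the family, came closest. It was at 3.87, 5.29 and 4.67 CPM in Egr1wtNesCre- females, at 6.15, 5.93 and 5.55 CPM in the males, at 4.94, 6.66 and 2.41 CPM in Egr1fNesCre- females and at 5.17, 4.52 and 6.05 CPM in the males. With Cre, Tgfb1 was at 6.48, 3.74 and 6.53 CPM in Egr1wt females, 6.69, 6.25 and 5.32 CPM in the males, 7.47, 6.59 and 4.75 CPM in Egr1cKO females and 6.67, 5.59 and 7.07 CPM in the males. The groups overlapped widely, with the Cre+ mouse higher in 77.8% of pairs. Its Cre difference was 0.26 on the log2 scale (SE 0.13, edgeR unadjusted p = 0.0507, adjusted p = 0.997), and leaving out single mice moved it between 0.19 and 0.33. It was 0.17 (SE 0.16) in Egr1wt and 0.35 (SE 0.20) in Egr1f mice. Tgfb1 had 44 to 196 counts per library, and its 95% interval was wide, from 0.011 to 0.51. This normal-scale interval just excludes 0, while the edgeR test gave an unadjusted p of 0.0507.

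Tgfb2 (ENSMUSG00000039239, chromosome 1), a ligand with 848 to 2040 counts per library, was measured more tightly. Its level ran from 47.5 to 62.4 CPM (median 54.2) in Cre- mice and from 37.3 to 70.0 CPM (median 60.0) in Cre+ mice, so the Cre+ range enclosed the Cre- range. The lowest value, 37.3 CPM, was that of Egr1cKO male replicate 3. The Cre difference was 0.059 (95% interval -0.10 to 0.22), and leaving out single mice kept it between 0.033 and 0.12. In Egr1f mice alone it was 0.14 (SE 0.12). Leaving out single mice moved that between 0.089 and 0.26, and it was called in 0 of these fits. Only among Egr1f females did the 3 Cre+ mice (56.2, 61.2 and 70.0 CPM) all exceed the 3 Cre- mice (55.1, 52.4 and 48.1 CPM), which was not tested on its own. Tgfbr1 separated in the same mice too (ratio of means 1.25). The share of all genes that separate this way was not counted, so nothing is drawn from it.

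Tgfb3 (ENSMUSG00000021253, chromosome 12), the third ligand, ran from 4.55 to 9.77 CPM without Cre and from 5.03 to 9.60 CPM with it. Its Cre difference was -0.032 (95% interval -0.19 to 0.13). Ltbp1 (ENSMUSG00000001870, chromosome 17) ran from 5.57 to 9.67 CPM without and from 5.58 to 9.62 CPM with Cre, a difference of -0.018 (95% interval -0.21 to 0.17).

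**Figure D2:**
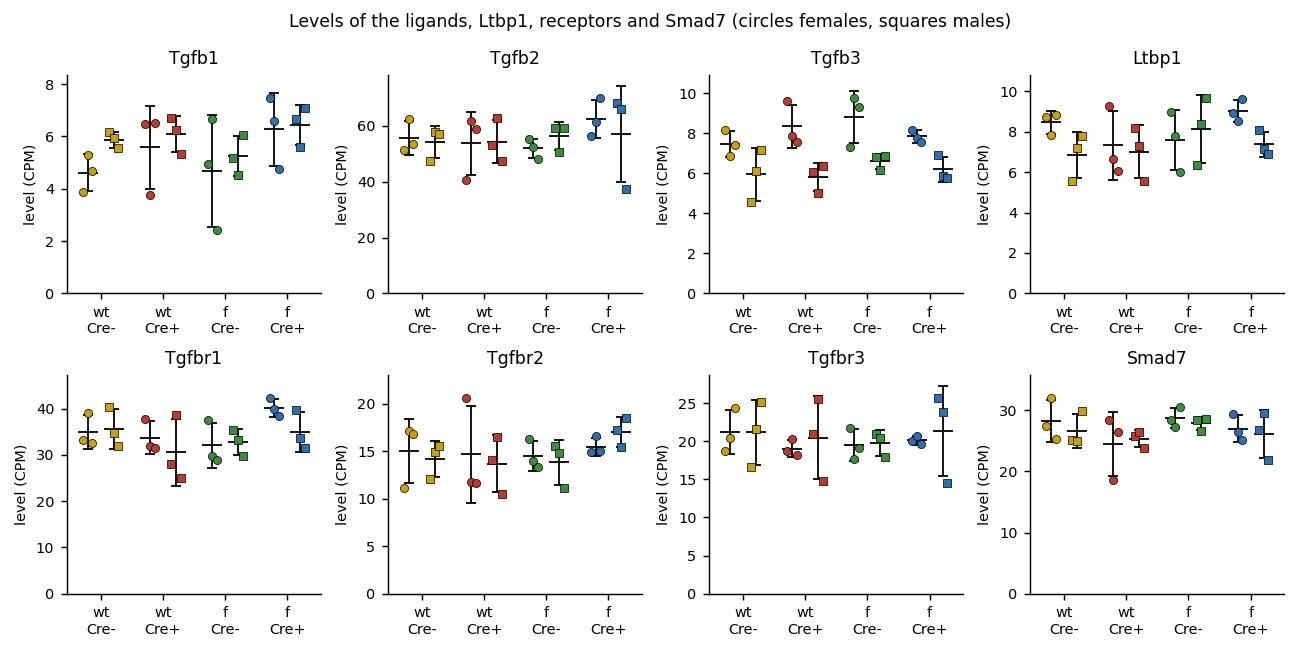
Levels in CPM (y axes, from 0) of the 8 other members in each mouse by genotype (x axes; wt, Egr1wt; f, Egr1f), circles for females and squares for males, with the mean and SD of 3 mice. The Cre+ and Cre- values overlapped for every gene, and Tgfb3 was higher in females, with 11 of 12 females above every male.

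Among the receptors, Tgfbr1 (ENSMUSG00000007613, chromosome 4), the signalling type I receptor, ran from 28.8 to 40.4 CPM in Cre- mice (median 33.3) and from 25.0 to 42.3 CPM in Cre+ mice (median 35.7). Its Cre difference was 0.035 (95% interval -0.10 to 0.17). Tgfbr2 (ENSMUSG00000032440, chromosome 9), the ligand-binding type II receptor, ran from 11.1 to 17.2 CPM without Cre and from 10.5 to 20.6 CPM with it, a difference of 0.077 (95% interval -0.12 to 0.27). Tgfbr3 (ENSMUSG00000029287, chromosome 5) ran from 16.6 to 25.2 CPM without and from 14.6 to 25.6 CPM with Cre, a difference of -0.014 (95% interval -0.19 to 0.16).

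Smad7 (ENSMUSG00000025880, chromosome 18), a direct target and brake of the pathway, was at 25.0 to 32.0 CPM (median 27.9) in Cre- mice and at 18.6 to 29.6 CPM (median 26.5) in Cre+ mice. The lowest value belonged to 1 Egr1wtNesCre+ female. Its Cre difference had the sign opposite to Tgfbi, -0.12 (SE 0.064, 95% interval -0.24 to 0.010, edgeR unadjusted p = 0.0814, adjusted p = 0.997), and leaving out single mice kept it between -0.14 and -0.074. The Cre+ mouse was the higher in 28.5% of pairs.

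The 2 pairwise comparisons gave the same count of calls as the 24-mouse fit. For Cre in Egr1wt mice, 0 of 8 members passed a fold of 1.2 and an adjusted p of 0.05 by edgeR, as did 0% of 17167 genes, with 0 members under an unadjusted p of 0.05 and 0 called by DESeq2. In Egr1f mice 0 of 8 passed, against 0.0232% of 17265 genes, and DESeq2 called 0. Tgfbr1 alone had an unadjusted edgeR p under 0.05 there, at 0.21 on the log2 scale (SE 0.088, adjusted p = 0.277). In all genes of that comparison 16.2% had an unadjusted p under 0.05. For Cre in females minus Cre in males, edgeR called 0 of 9 members and 0% of 19742 genes, 0 members had an unadjusted p under 0.05, and DESeq2 called no member.

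**Figure D3:**
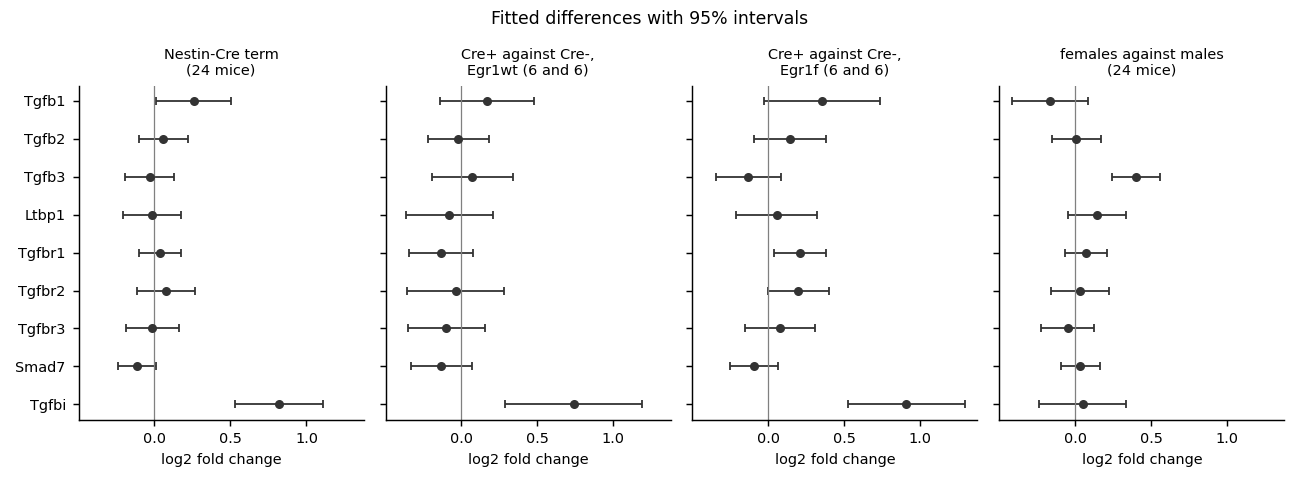
Fitted log2 fold changes (x axes) of the 9 members with bars of the 95% interval, for the Nestin-Cre term (24 mice), Cre in Egr1wt and in Egr1f mice (6 against 6 each) and females against males (24 mice). Tgfbi stood at 0.82, 0.74 and 0.91 in the Cre panels, where it was chosen for its difference, and Tgfb3 at 0.40 between the sexes.

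The floxed allele was weighed by the floxP term and, on its own, by Egr1f against Egr1wt mice without Cre. The floxP term averages mice with and without Cre, so it includes the Egr1cKO mice. Its 1 called gene was Egr1 itself (log2 difference -1.83). For the floxP term edgeR called 0 of 9 members, against 0.00507% of 19742 genes, with 0 members under an unadjusted p of 0.05 and 0 by DESeq2; the differences ran from -0.06 for Tgfbi to 0.12 for Ltbp1. Without Cre, Egr1f against Egr1wt called 0 of 9 by edgeR and 0 by DESeq2, as did 0% of 17393 genes by edgeR, and 0 members had an unadjusted p under 0.05. Tgfbi was at 2.16 ± 0.36 CPM in Egr1fNesCre- and 2.39 ± 0.83 CPM in Egr1wtNesCre- mice (n = 6 each), a log2 difference of -0.15 (95% interval -0.58 to 0.29, edgeR adjusted p = 0.827).

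Loss of Egr1 was compared through the interaction, through Egr1f against Egr1wt mice with Cre and through Egr1cKO against the other 18 mice, which share the Egr1cKO samples. The interaction called 0 of 9 members by edgeR, against 0.00507% of genes, the 1 gene being Egr1. DESeq2 called 0 members and 40 genes, but it gave no adjusted p for Tgfb1 and Tgfbi. With Cre, Egr1f against Egr1wt called 0 of 9 by both tools, against 0.00585% of 17080 genes by edgeR. Egr1cKO against 18 called 0 of 8 by both tools, against 0.0163% of 18433 genes by edgeR. In each of the 3 comparisons 1 member, Tgfbr1, had an unadjusted p under 0.05. That is 11.1% of the members tested in the first and second and 12.5% in the third, against 18.4%, 12.3% and 15.1% of all genes, so the members did not exceed the background.

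Tgfbr1 averaged 37.6 ± 4.1 CPM in Egr1cKO mice, 32.4 ± 3.5 in Egr1fNesCre-, 32.2 ± 5.4 in Egr1wtNesCre+ and 35.3 ± 3.6 CPM in Egr1wtNesCre- mice (SD, n = 6 each). In single Egr1cKO mice it was at 42.3, 40.0 and 38.5 CPM in the females, while males were at 39.8, 33.6 and 31.5 CPM. In Egr1wtNesCre+ mice it was at 37.8, 31.9 and 31.6 CPM in the females, while males were at 28.0, 38.7 and 25.0 CPM. The interaction was 0.35 (SE 0.14, edgeR unadjusted p = 0.0195, adjusted p = 0.195), and Egr1cKO against the other 18 gave 0.18 (SE 0.081, adjusted p = 0.302). The call turned on male Egr1wtNesCre+ replicate 2, the mouse at 38.7 CPM. Without it the interaction was 0.43 (adjusted p = 0.0476), and Egr1f against Egr1wt with Cre was 0.32 (adjusted p = 0.0488) in place of 0.22 (adjusted p = 0.405). These 2 fits called 1455 and 794 genes in all, so the Tgfbr1 calls came with a general rise in calls.

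With Cre present, Tgfbi was at 4.06 ± 1.03 CPM in Egr1cKO and 3.97 ± 0.82 CPM in Egr1wtNesCre+ mice (n = 6 each), a log2 difference of 0.027 (95% interval -0.37 to 0.42, edgeR adjusted p = 0.969). Against all 18 other mice Egr1cKO stood 0.52 higher (SE 0.21), a value that sets 6 Cre+ mice against a mix of 6 Cre+ and 12 Cre- mice.

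Between the sexes Tgfb3 was the member that differed most, a pattern already known from earlier results of these data. Tgfb3 was at 8.16, 6.87 and 7.42 CPM in Egr1wtNesCre- females and at 4.55, 6.11 and 7.19 CPM in the males. In Egr1wtNesCre+ mice it was at 9.60, 7.85 and 7.59 CPM in the females, while males were at 6.05, 5.03 and 6.35 CPM. In Egr1fNesCre- mice Tgfb3 was at 7.34, 9.77 and 9.32 CPM in the females, while males were at 6.80, 6.18 and 6.86 CPM. In Egr1cKO mice it was at 8.19, 7.76 and 7.59 CPM in the females, while males were at 6.91, 5.89 and 5.79 CPM. The sexes overlapped by 1 female and 2 males: 11 of 12 females were above every male, and 10 of 12 males were below every female.

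The 12 females averaged 8.12 ± 0.94 CPM of Tgfb3 and the 12 males 6.14 ± 0.78 CPM, a log2 difference of 0.40 (SE 0.081). In the 24-mouse fit it missed the threshold narrowly (edgeR adjusted p = 0.0501), so edgeR called 0 of 9 members, against 0.0658% of 19742 genes, and DESeq2 called 1, Tgfb3 (adjusted p = 0.00157). Without the 5 mice rich in Ttr the difference was 0.36 with an edgeR adjusted p of 0.755, and it passed without Egr1wtNesCre- male replicate 3 (adjusted p = 0.0197), Egr1fNesCre- female replicate 1 (0.0343) or Egr1fNesCre+ male replicate 1 (0.0459). Tgfb3 was the 1 member with an unadjusted p under 0.05, and its fitted difference stayed between 0.36 and 0.44 over all alternatives. Tgfbi stood at a mean of 3.16 CPM in females against 3.13 CPM in males (log2 difference 0.048, 95% interval -0.24 to 0.34), and the differences of the other 7 members ran from -0.17 for Tgfb1 to 0.14 for Ltbp1. On the strand opposite Tgfb3, Ttll5 shares no exon base with it, and 2 small transcripts that do, Gm37804 and Gm48008, had 14 and 23 counts over all 24 libraries.

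Whether Tgfbi went with the other members from mouse to mouse was then examined within the 8 groups, apart from the Cre difference. In a fit of every gene on the Tgfbi level of the mouse, the slope was called for 0 of 8 members by edgeR (0% of 19741 genes), 0 had an unadjusted p under 0.05, and DESeq2 called 0. Per doubling of Tgfbi, Tgfb1 changed by 0.34 on the log2 scale (95% interval -0.086 to 0.77), Ltbp1 by 0.20 (-0.11 to 0.52), Tgfb3 by 0.050 (-0.23 to 0.33) and Tgfb2 by -0.12 (-0.40 to 0.16). Smad7 changed by -0.018 (-0.25 to 0.21) and the 3 receptors by 0.045 to 0.15. The intervals include 0 for all 8, and that of Tgfb1 is too wide to tell a flat line from a steep one.

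Simple correlations of log2 CPM, 16 in all, were taken over the 12 Cre- and the 12 Cre+ mice apart. In Cre- mice Tgfbi and Smad7 ran in opposite directions (r = -0.608, permutation p = 0.0341; rho = -0.503, permutation p = 0.0984; r without the 2 mice farthest from the median -0.579), while in Cre+ mice r was 0.413 (permutation p = 0.184; rho = 0.217, permutation p = 0.499; -0.104 without 2 mice). Tgfb2 gave r = -0.487 (permutation p = 0.106) and rho = -0.65 (permutation p = 0.0261) without Cre, with r = -0.713 without 2 mice, and r = -0.071 with Cre. Tgfb1 gave r = 0.549 in Cre+ mice (permutation p = 0.0676; rho = 0.406, permutation p = 0.193), which dropped to 0.153 without 2 mice and so rests on them, and r = 0.147 in Cre- mice. These p are two-sided and not adjusted. Of the 16, 1 had a p of r under 0.05 and 1 a p of rho, and these were different genes.

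**Figure D4:**
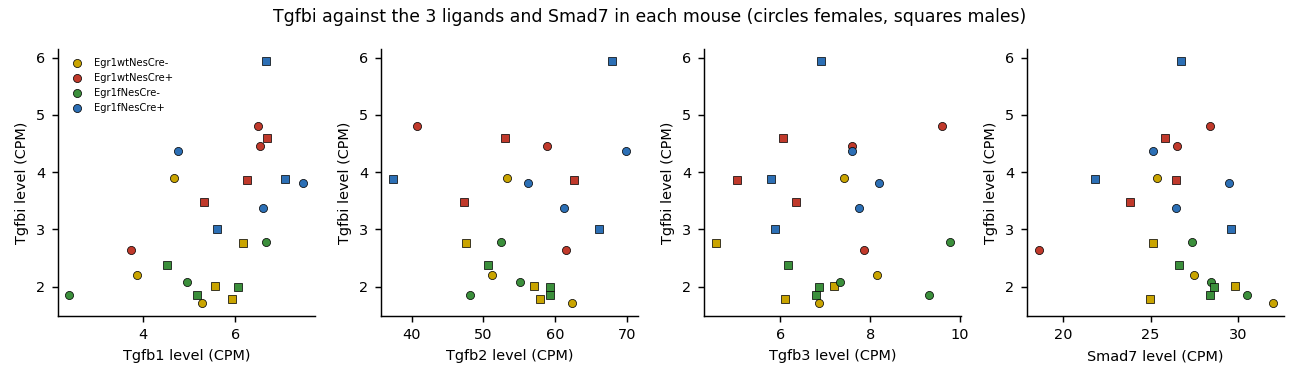
Tgfbi level (y axes, CPM) against the levels of Tgfb1, Tgfb2, Tgfb3 and Smad7 (x axes, CPM) in the 24 mice, coloured by genotype, circles for females and squares for males. The Cre+ mice lie above most Cre- mice over the same x range, and for Smad7 r was -0.608 without Cre and 0.413 with it.

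The other genes of the pathway were 88 in 7 lists, chosen with earlier results of these data known, of which 85 were tested in the 24-mouse fit. For the Nestin-Cre term edgeR called 1 higher and 0 lower, Tnc, which encodes the matrix glycoprotein tenascin C (log2 difference 0.66, SE 0.13, adjusted p = 0.046). This term averages Egr1wt and Egr1f mice, so it includes the Egr1cKO mice, and Egr1 itself was called in it (-1.95). By allele, Tnc was called in Egr1f mice (1.06), and 0 pathway genes were called in Egr1wt mice. Mmp14, a membrane metalloprotease that cleaves matrix proteins, stood at 0.66 (SE 0.14, edgeR adjusted p = 0.0795) and was called by DESeq2 (adjusted p = 0.00145). An unadjusted p under 0.05 was found for 14 of the 85, or 16.5%, against 4.29% of all genes, and the median difference was 0.036. In 17 of 24 fits that each left out 1 mouse, no pathway gene was called.

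By role, the 15 tested genes of latency and activation had a median Cre difference of 0.021 and 0 calls, Thbs1 (thrombospondin 1, an activator of latent TGF-beta) at 0.25 and Itgb8 (an integrin chain that activates it) at 0.021. In that list 1 gene, Nrros, had an unadjusted edgeR p under 0.05 (0.28, SE 0.12, unadjusted p = 0.0256, adjusted p = 0.997). The 7 SMADs had a median of 0.051 with 0 calls, Smad3 at -0.041 and Smad4 at 0.057. The 10 inhibitors and feedback genes had a median of 0.02 with 0 calls, and Skil and Pmepa1, which like Smad7 are induced by the pathway and restrain it, stood at -0.001 and 0.02. In the same list Bambi stood lower, at -0.24 (SE 0.10, edgeR unadjusted p = 0.0226, adjusted p = 0.997). It was the 1 gene of the 10 with an unadjusted p under 0.05. The 10 other receptors of the family had a median of 0.048, the 12 other ligands 0.186 and the 7 binding proteins 0.07, with 0 calls in each. Among 24 responsive genes the median was -0.013, and 11 of the 24 were above 0. An unadjusted edgeR p under 0.05 was found for 8 of them, or 33.3% against 4.29% of all genes. The higher ones were Tnc, Mmp14, Col1a1 (a collagen chain, 0.57), Col1a2 (0.49), Id3 (0.24) and Id2 (0.195). The lower ones were Acta2 (smooth muscle actin, -0.53) and Sparc (-0.19). Ccn2 stood at -0.13.

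**Figure D5:**
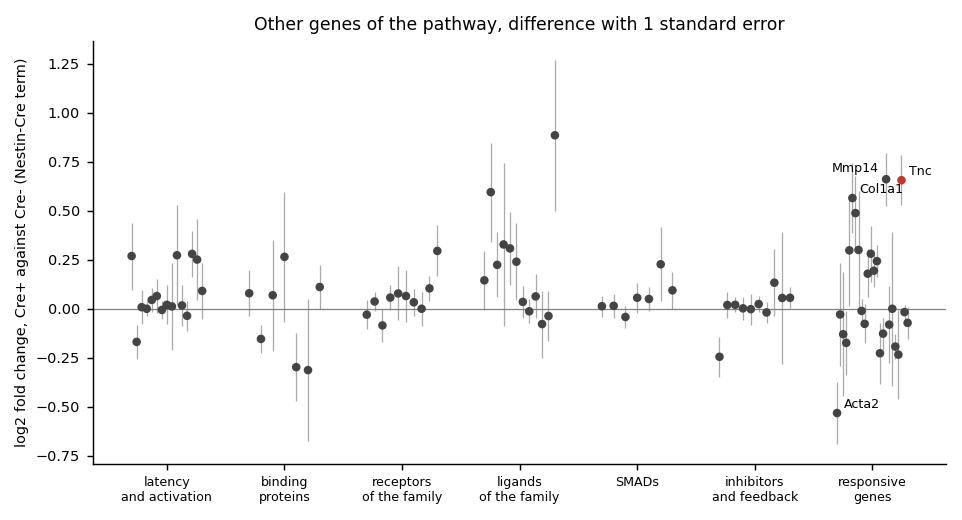
Log2 fold change of Cre+ against Cre- mice (y axis, Nestin-Cre term of 24 mice) with 1 SE for 85 other pathway genes by role (x axis), the called gene in red. Tnc at 0.66 was the 1 gene called by edgeR, and the medians of the 7 roles ran from -0.013 to 0.186.

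In the pairwise comparisons, edgeR called Tnc in Egr1f mice (1.06, SE 0.15, adjusted p = 0.013) among 83 tested, against 0.0232% of 17265 genes. There DESeq2 also called Mmp14 and Col1a2, among 86 genes in all. Of the 83, 23 had an unadjusted edgeR p under 0.05, or 27.7% against 16.2% of all genes. In Egr1wt mice edgeR called 0 of 82, with 5 at an unadjusted p under 0.05 (6.1% against 6.05% of all genes), and DESeq2 called 0. Tnc's interaction of allele and Cre was 0.79 (SE 0.25, edgeR adjusted p = 0.159), so a difference between the alleles was not established. For Egr1cKO against the other 18 mice edgeR called 0 of 85 and DESeq2 2, Chrd (an inhibitor of bone morphogenetic proteins, -0.33) and Tnc (0.73). An unadjusted p under 0.05 was found for 23, or 27.1% against 15.1% of all genes. The 10 other receptors of the family had 7 of these, or 70%, with 0 called. Their median Cre difference was -0.112 in Egr1wt mice, with 1 of 10 above 0. In Egr1f mice it was 0.197, with 10 of 10 above 0 and 6 (60% against 16.2% of all genes) under an unadjusted edgeR p of 0.05. Again 0 were called, and the list was not tested as a set. For the sex term, 0 of 85 were called by edgeR or DESeq2 and 8 had an unadjusted p under 0.05, or 9.41% against 5.79% of all genes. The slope on Tgfbi was called for 0 of 85 by both tools, with 15 under an unadjusted p of 0.05, or 17.6% against 2.6% of all genes. The pathway lists share Col1a1, Col1a2, Col3a1 and Dcn with the fibroblast and meninges markers below, and Acta2 with the mural markers. The slopes of the first 3 were 0.78 (SE 0.27), 0.75 (SE 0.28) and 1.16 (SE 0.42). The slopes of the pathway and of these markers are thus not separate results.

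Markers of other cells that a hippocampal dissection can hold were set beside Tgfbi. The summed level of 10 choroid plexus markers ran from 37.6 to 1057 CPM in Cre- and from 35.6 to 2086 CPM in Cre+ mice; 9 of the 10 had a Cre difference above 0, with a median of 1.01 and 0 called. The summed choroid plexus level correlated with Tgfbi at r = -0.051 in the 12 Cre- and -0.044 in the 12 Cre+ mice, and the Tgfbi difference was 0.84 without the 5 mice rich in Ttr. The 10 fibroblast and meninges markers summed to 25.4 to 135.4 CPM without and 51.2 to 112.1 CPM with Cre, with a median Cre difference of 0.28 and 0 called. All 10 had a slope on Tgfbi above 0, with a median of 0.77, but 0 were called by edgeR. Col1a1, Col1a2, Col3a1 and Dcn of these 10 are also counted in the pathway lists. The 6 border macrophage markers, Mrc1 and Lyve1 among them, summed to 3.01 to 12.5 CPM without and 2.15 to 11.4 CPM with Cre, and the 5 tested had slopes above 0 (median 1.18) but a median Cre difference of -0.052, with 0 called in either. Of 8 astrocyte markers, Aqp4, the water channel of astrocyte endfeet, was called with Cre (0.61, edgeR adjusted p = 0.000179), Slc1a3 stood at 0.004 and Gfap at 0.26. The summed levels of the other vascular, meningeal and macrophage lists correlated with Tgfbi as follows, in Cre- and Cre+ mice: fibroblast 0.32 and 0.407, border macrophage 0.514 and 0.505, endothelial -0.523 and 0.575, and mural -0.266 and 0.707. In 10 of the 11 marker lists no gene was called for the Cre term. No marker in the count table was at 0 in all 24 mice, and their part in the Tgfbi difference was not tested.

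The genes whose levels most resembled each member over the 24 mice, by Pearson's r of log2 CPM, are given as a description, since all share the same libraries. For Tgfbi they were Myoc (0.791), Gm9269 (0.75), Hopx (0.742), Aqp4 (0.733) and Mmp14 (0.713), and part of this likeness is the Cre difference that chose Tgfbi. For Tgfb3 they were Xist (0.737), the X-inactivation transcript of females, and Itgb5 (0.732). For Tgfb2 they were Clstn2 (0.871) and Paqr9 (0.862), and for Tgfb1 Ets1 (0.701) and Gm26781 (0.696). Ltbp1 went with Bmp5 (0.759) and Edn3 (0.74), and Smad7 with Pou6f1 (0.757) and Frrs1 (0.756). Among the receptors they were Dab2ip (0.893) and Setd1b (0.873) for Tgfbr1, Epb41l2 (0.836) and Utrn (0.83) for Tgfbr2, and Notch2 (0.82) and Zmym4 (0.806) for Tgfbr3. No member of the set was among the nearest genes of another. With only 2 genes kept for each (5 for Tgfbi) of 19741, this says little about how members went together. Between members, r over the 24 mice was highest for Tgfb2 with Tgfbr3 (0.642), Tgfbr1 with Tgfbr2 (0.517) and Tgfb1 with Tgfbi (0.481). It was lowest for Smad7 with Tgfbi (-0.294).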

How the data were processed

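RNA from the hippocampus of 24 mice (8 groups of 3, by sex and genotype) was sequenced as paired reads. The authors trimmed reads with Trim Galore, mapped them to mm10 (GRCm38) with STAR and deposited raw counts per gene, not normalized. The submitters' notes name STAR 2.7.9 and Trim Galore 3.8.2. The paper names other versions of both tools, and which made the counts is not clear. The annotation and the strand setting are not given in the sources used here. Gene positions and exon lengths came from GENCODE M21 and promoter windows from RefSeq (GRCm38.p6); proteins were not used here. Genes with low counts were removed with filterByExpr (minimum count 10). Counts were scaled by TMM and fitted in edgeR 4.0.16 (R 4.3.3) with a trended dispersion and the quasi-likelihood test, Benjamini-Hochberg adjusted over all genes tested, at an adjusted p of 0.05. The 24-mouse fit held floxP, Cre, their interaction and sex, and pairwise fits (6 against 6, sex as a covariate) also asked for a fold of 1.2. Correlations used 1e+05 permutations. DESeq2 1.42.0 and other settings were alternatives; the scripts were tested on simulated data. Intervals of 95% were taken from the SE on the normal scale (1.96 SE). They describe the uncertainty of a fitted difference, not the spread of single mice. They are somewhat narrower than the quasi-likelihood test would give. With 1 library per mouse, counting error adds to the spread of members with about 100 counts or fewer. Its part was not separated from variation between mice. Replicate numbers did not pair the samples. No 2 libraries of a group agreed within sampling noise.

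The 9 members and the pathway and marker lists were chosen with earlier results of these data known. Named genes were all members, pathway genes called in a comparison, and the genes most correlated with each member; Egr1 was the check of the labels. Pathway and marker genes without a call are named as examples, chosen after their values were seen. One gene of the pathway lists is not reported here.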

Additional observations from a re-analysis of the deposited data

How the results depend on the processing

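Over 2550 values of single genes under alternatives, 2541 were counted as unchanged, and 9 passed the threshold newly. The 9 were Tgfb3 between the sexes and Tgfbr1, given with their values above. Unchanged means the same side of the threshold only for values with a test. For levels and the untested Cre difference of Tgfbi it means a shift under 1 SD. Correlations got no new p under alternatives, and large shifts count as unchanged. That of Tgfbi with Smad7 in Cre+ mice went from 0.413 to -0.104 without 2 mice. Directions of values near 0 that were not called changed in places; the Cre difference of Ltbp1 kept its sign in 22 of 29 alternatives. Without the filter on low counts the genes called rose to 191 (Nestin-Cre term), 97 (floxP), 1173 (interaction), 111 (sex), 156 (Cre in Egr1wt), 808 (Cre in Egr1f), 163 (Egr1f against Egr1wt without Cre), 529 (the same with Cre), 9 (Egr1cKO against 18), 32 (Cre in females minus males) and 80 (slope on Tgfbi), and the pathway genes called to 8, 3, 12, 2, 3, 16, 2 and 7 for the first 8 of these and to 5 for the slope; the cause was not tested, and no member was called. DESeq2 called 19, 2, 40, 17, 86, 1, 37, 42, 2 and 1 genes for the Nestin-Cre term, floxP, interaction, Cre in Egr1wt, Cre in Egr1f, Egr1f against Egr1wt without and with Cre, Egr1cKO, females minus males and slope, with 2, 3 and 2 pathway genes for the Nestin-Cre term, Cre in Egr1f and Egr1cKO. For the sex term, DESeq2, edgeR with DESeq2's size factors and a fit of sex alone by edgeR or DESeq2 each called 1 member, Tgfb3 (adjusted p = 0.00157, 0.0447, 0.0443 and 0.00183), and the last gave 20 genes and 1 pathway gene. The fit of all 24 mice gave 7 genes for Egr1cKO and 3 for Egr1f against Egr1wt with Cre. Without the mice over 100 CPM of Ttr there were 14 genes for Egr1cKO and 8 for sex. With the replicate block, the Nestin-Cre term called 0 pathway genes in place of 1 and Cre in Egr1f 7 genes in place of 4; same-numbered mice correlated between -0.146 and 0.223 in their deviations, so the numbers name mice and do not pair them.

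Leaving out each mouse in turn gave 0 to 2 pathway genes and 5 to 12 genes for the Nestin-Cre term, 1 to 2 genes for floxP, 0 to 1 members, 0 to 8 pathway genes and 1 to 1455 genes for the interaction, and 0 to 1 members for sex. It gave 0 to 1 pathway genes and 0 to 229 genes for Cre in Egr1wt, 0 to 2 and 2 to 304 for Cre in Egr1f, 0 to 1 genes for Egr1f against Egr1wt without Cre, and 0 to 1 members, 0 to 4 pathway genes and 1 to 794 genes with Cre. For Egr1cKO it gave 0 to 1 pathway genes and 1 to 68 genes, the 68 without male Egr1fNesCre+ replicate 3, and for the slope 0 to 1 of each. The 1455, 229 and 794 came without male Egr1wtNesCre+ replicate 2 and the 304 without male Egr1fNesCre- replicate 1. No fold minimum was tried for the interaction, the females minus males contrast or the slope. The choices tried after seeing the data were leaving out the mice rich in Ttr and the fits of sex alone. Tgfbi (34 to 121 counts) and Tgfb1 (44 to 196) are the members with the lowest counts. Precision did not follow counts alone: the SE of the Cre difference was 0.081 for Tgfb3 (91 to 234 counts) and 0.083 for Tgfb2 (848 to 2040 counts).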
